A study of Rattus norvegicus with 12 samples.

Results

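The small circular genome of the mitochondrion encodes 13 proteins, all of them subunits of the respiratory chain or of ATP synthase. The 6 mRNAs described here are those that encode no subunit of complex I. They were taken by gene symbol from the deposited expression table, where each symbol had a single row among the 30562 genes, and all 6 were among the 12263 genes whose mean level reached 1 TPM. TPM counts transcripts on a common total per library, corrected for transcript length. Mt-co1 (ENSRNOG00000034234), Mt-co2 (ENSRNOG00000030371) and Mt-co3 (ENSRNOG00000030700) encode the core subunits of cytochrome c oxidase, complex IV. Mt-cyb (ENSRNOG00000031766) encodes cytochrome b, the only subunit of complex III made in the mitochondrion. Mt-atp6 (ENSRNOG00000031979) and Mt-atp8 (ENSRNOG00000033299) encode a pair of subunits of the membrane part of ATP synthase, complex V.

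RNA-seq had been performed on H9c2 cells, a line derived from embryonic rat heart, in 4 groups of 3 libraries. One group was an untreated control, one received methylmalonic acid (MMA), one folic acid (FA), and one both agents (MMA+FA). The labels state neither dose nor time. The series title places the design in the setting of folate, methylmalonic acid and cardiovascular mortality, so the comparisons ask what each agent does to these mRNAs and whether the response to one depends on the other. The labels give the replicates numbers only, without saying that they came from separate cultures, so p-values measure the spread between these libraries, which may be technical.

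As background, the mitochondrial genome is transcribed as long RNAs from both strands, which are cut, mostly at the tRNAs between the genes, into rRNAs and mRNAs. The mRNAs therefore start from shared precursors, and their levels differ through processing and decay. Mt-atp8 and Mt-atp6 stay joined on 1 mRNA with overlapping reading frames, so how reads were divided between them is uncertain. Heart muscle relies on oxidative phosphorylation, and each of the complexes III, IV and V joins these subunits to many others made from nuclear genes. Methylmalonic acid builds up when the cobalamin-dependent methylmalonyl-CoA mutase of the mitochondrion is impaired, and folic acid is a synthetic vitamin that cells convert to active folates.

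Because TPM adds up to the same total in every library, read depth per library is not known, and a rise of some genes lowers all others. The Pearson correlation of log2(TPM + 1) between libraries of the same group was between 0.987 and 0.992, and 0 pairs within a group were identical. H9c2 cells are labelled as cardiomyocytes, but of 13 cardiomyocyte markers in the table only Tnnt2, Nkx2-5 and Gata4 reached a mean of 1 TPM, and Myh6, a myosin of heart muscle, averaged 0.0333 TPM in control. The 13 markers summed to 32.3 to 38.3 TPM in control, 38.5 to 40.7 in MMA, 61.7 to 64.4 in FA and 84.4 to 103.75 in MMA+FA. None of the 13 markers was at 0 in all libraries. For the 3 that reached 1 TPM, log2 differences of MMA+FA from control ran from -0.15 to 2.12 with a median of 0.031. The higher sums therefore do not stand for a rise of all 3. Of 10 skeletal myoblast markers 6 passed the filter. Their sums were 103.75 to 114.7 TPM in control and 90.95 to 95.6 in MMA. They were 94.0 to 105.8 TPM in FA and 69.1 to 82.1 in MMA+FA. Of 10 fibroblast and mesenchymal markers 8 passed. They summed to 10211 to 10959 TPM in control and 10544 to 11784 in MMA. In FA the sums were 11895 to 13844 TPM and in MMA+FA 10777 to 12395. None of 8 endothelial markers and 2 of 7 leukocyte markers passed. The part of these differences in the results below was not tested.

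The 6 mRNAs were among the most abundant of the cells. By mean TPM over the 12 libraries, Mt-atp8 had rank 2 of all genes, Mt-co1 rank 3, Mt-co3 rank 4, Mt-co2 rank 5, Mt-atp6 rank 8 and Mt-cyb rank 11. Together they held 7.81 ± 0.187% of all TPM in control, 8.49 ± 0.531% in MMA, 7.70 ± 0.704% in FA and 8.33 ± 0.389% in MMA+FA (SD, n = 3). Without Mt-atp8 the share was 4.89 ± 0.215%, 5.36 ± 0.225%, 4.87 ± 0.487% and 5.26 ± 0.121% in the same order. TPM is corrected for length, so levels can be set side by side between genes, except that those of Mt-atp8 and Mt-atp6 depend on how reads of their shared mRNA were divided. Their places in this order, including that of Mt-atp8 as the highest of the 6, are those the deposited table lists.

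The order of the levels was nearly the same in all 12 libraries. Mt-atp8 was listed highest with 29886 ± 2470 TPM (SD over 12 libraries), and Mt-cyb was lowest of the 6 with 5849 ± 335 TPM. Mt-co1 with 14047 ± 980 TPM and Mt-co3 with 13241 ± 767 TPM were neighbours whose ranges over the 12 libraries overlapped. Within a library Mt-co1 was the higher, except in the first of MMA+FA, where Mt-co3 stood at 1.0003 times Mt-co1. Mt-co2 followed with 10750 ± 1174 TPM and Mt-atp6 with 7058 ± 490 TPM. Mt-co2 and Mt-atp6, and Mt-atp6 and Mt-cyb, kept their order within each library.

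**Figure D1:**
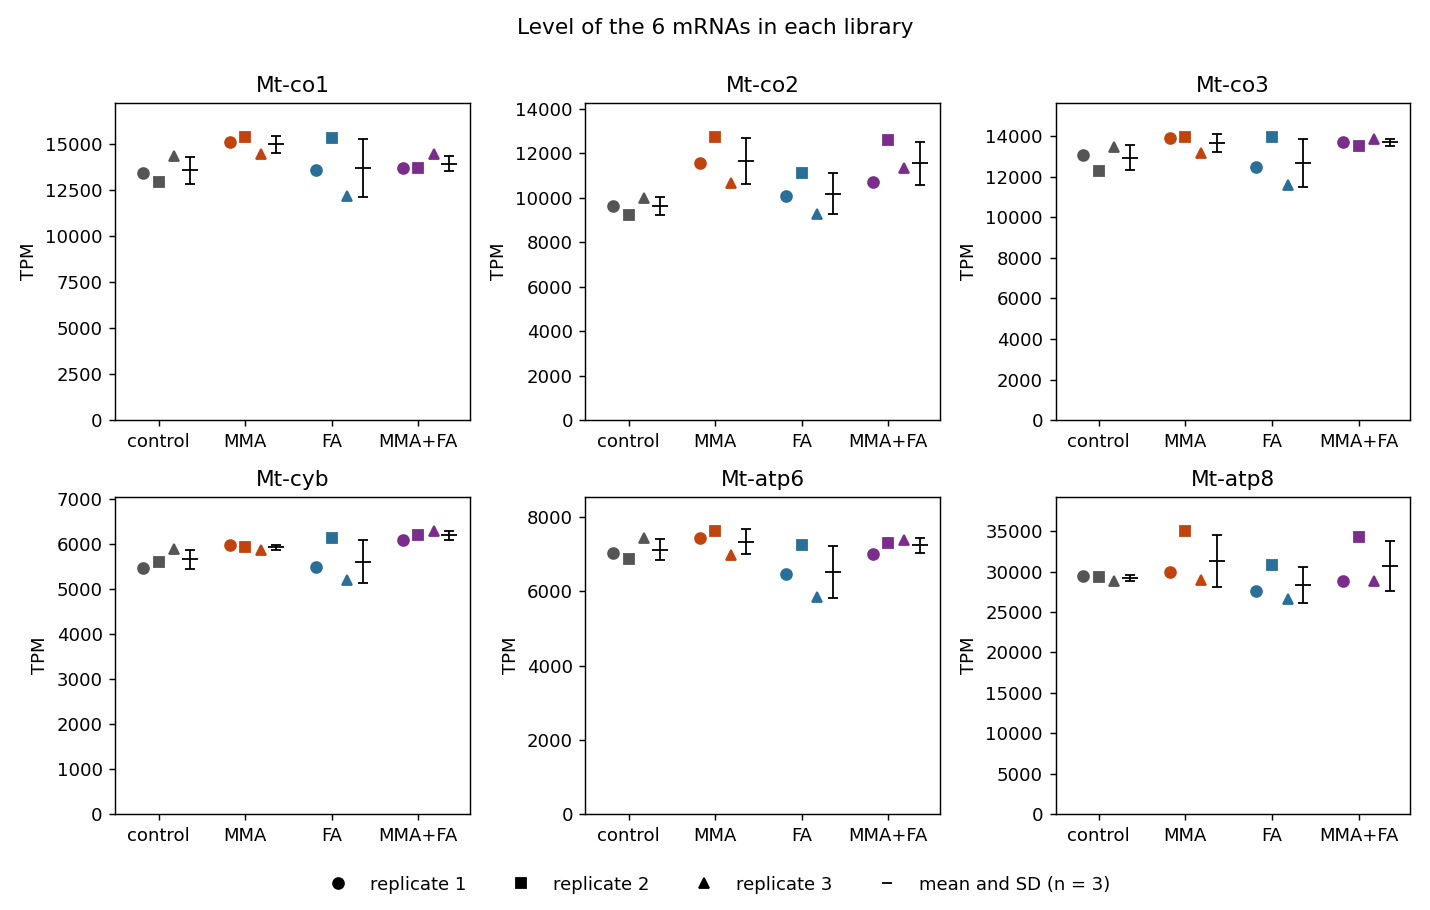
TPM of each of the 6 mRNAs (vertical axes from 0) in the 12 libraries of the 4 groups. Points are libraries with the symbol giving the replicate number, and the bar beside them is the mean with SD of 3. Mt-co2 stands higher in every MMA and MMA+FA library than in every control library, while the groups of Mt-atp6 and Mt-atp8 overlap.

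Among the subunits of cytochrome c oxidase, Mt-co2 separated the groups most clearly. Mt-co2, whose product holds the copper site that takes electrons from cytochrome c, was at 9630, 9210 and 10018 TPM in control and at 11553, 12735 and 10663 TPM in MMA. It was at 10106, 11135 and 9299 TPM in FA and at 10716.5, 12592 and 11338 TPM in MMA+FA. All libraries with MMA, alone or with FA, lay above all control libraries, and the FA libraries overlapped with every other group. The second replicates of MMA and of MMA+FA were the highest libraries.

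Mt-co1, the subunit that holds the haem and copper centre where oxygen is reduced, was at 13445, 12911 and 14351 TPM in control and at 15111, 15369 and 14474 TPM in MMA. It was at 13563, 15347 and 12193 TPM in FA and at 13689, 13686 and 14430 TPM in MMA+FA. The MMA libraries lay above all control and all MMA+FA libraries. MMA+FA overlapped with control, and FA covered nearly the whole range.

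Mt-co3, the remaining core subunit, was at 13084, 12256 and 13449 TPM in control, 13898, 13936 and 13160 in MMA, 12467, 13949 and 11592 in FA, and 13693, 13528 and 13876 in MMA+FA. Its MMA+FA libraries lay above all control libraries, and MMA and control overlapped. The highest value of all belonged to the second FA library.

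Mt-cyb, the haem-carrying core of complex III, was at 5476, 5609 and 5895 TPM in control and at 5988, 5929 and 5879 TPM in MMA. It was at 5496, 6129 and 5198 TPM in FA and at 6100, 6201 and 6291 TPM in MMA+FA. The MMA+FA libraries were above all control and all MMA libraries. Only the second FA library reached into their range.

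Mt-atp6, the subunit that forms the proton path of ATP synthase, was at 7044, 6885 and 7432 TPM in control, 7438, 7627 and 6968 in MMA, 6474, 7258 and 5856 in FA, and 7020, 7312 and 7378 in MMA+FA. Every pair of groups overlapped. The first and the third FA library were the lowest of the 12.

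Mt-atp8, a small membrane subunit of ATP synthase, was at 29471, 29323 and 28792 TPM in control, 29901, 35027 and 29001 in MMA, 27597, 30842 and 26631 in FA, and 28851, 34290 and 28902 in MMA+FA. The second MMA and second MMA+FA libraries stood far above the rest. All groups overlapped.

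With MMA alone, Mt-co2 was the only one of the 6 mRNAs that rose by the test. Log2(TPM + 1) was fitted in limma over all 12263 genes, and a gene was called where its Benjamini-Hochberg adjusted p was under 0.05. Mt-co2 was higher by 0.27 on this scale (SE 0.0791, adjusted p = 0.0307). The difference was 0.14 for Mt-co1 (SE 0.0693, adjusted p = 0.156), and it was between 0.044 and 0.096 for the other four (adjusted p between 0.350 and 0.664). So 1 of 6 was called higher and 0 lower, where 3.85% of all genes were called higher and 16.5% lower. The groups did not overlap for 2 of 6, Mt-co1 and Mt-co2, as for 10.5% of all genes with MMA above control.

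The call of Mt-co2 was close to the threshold. Leaving out any one of the control libraries, or the first or second MMA library, gave an adjusted p between 0.0527 and 0.105, with differences from 0.21 to 0.30. It was also lost with no filter on low values (adjusted p = 0.125). With quantile normalization, which gives equal ranks equal values, the difference of Mt-co2 was 0. The median over all genes in this comparison was -0.072. With libraries scaled by the median ratio over the tested genes, 8.16% of all genes were called higher and 6.91% lower, and the difference of Mt-co2 was 0.35 (adjusted p = 0.0184).

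In the presence of FA, none of the 6 was called for MMA. In MMA+FA against FA, the 6 differences were 0.18 for Mt-co2, 0.15 for Mt-cyb and for Mt-atp6, 0.12 for Mt-co3, 0.11 for Mt-atp8 and 0.030 for Mt-co1. The lowest adjusted p was 0.0853, for Mt-cyb. In all, 0 of 6 were called by limma, while 1.60% of all genes were called higher and 8.90% lower. Without adjustment, 3 of 6 (Mt-co2, Mt-cyb and Mt-atp6) and 29.3% of all genes had p under 0.05. The FA group had the largest SD of the 4 for Mt-co1, Mt-co3, Mt-cyb and Mt-atp6, and its second library was its highest for each of the 6 mRNAs. Without that library 3 of 6 were called higher, namely Mt-co3 with 0.19 (adjusted p = 0.0240), Mt-cyb with 0.21 (adjusted p = 0.00846) and Mt-atp6 with 0.23 (adjusted p = 0.0172), and in that fit 2.67% of all genes were called higher and 13.7% lower.

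Averaging the response to MMA over both FA states used all 12 libraries and gave calls for Mt-co2 and Mt-cyb. Mt-co2 was higher by 0.23 (SE 0.0559, adjusted p = 0.0109), and this call remained when any single library was left out (differences from 0.19 to 0.26). Mt-cyb was higher by 0.11 (SE 0.0366, adjusted p = 0.0427). The differences of the other four were between 0.087 and 0.10, with adjusted p from 0.0929 for Mt-co3 to 0.197 for Mt-co1. Thus 2 of 6 were called higher and 0 lower, where 4.13% of all genes were called higher and 26.0% lower.

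The call of Mt-cyb was lost in 10 of the 12 fits that left out 1 library (adjusted p from 0.0563 to 0.0982), and it was kept without the third control library or the second FA library. It was also lost with a replicate block (adjusted p = 0.0558) and with no mean-variance trend (adjusted p = 0.0723). Without the second FA library 5 of 6 were called higher, all but Mt-atp8, in a fit that called 4.50% of all genes higher and 27.3% lower. Neither Mt-co2 nor Mt-cyb was called with no filter (adjusted p = 0.0600 and 0.166) or with quantile normalization (adjusted p = 0.450 and 0.512). With median-ratio scaling 5 of 6 were called, again all but Mt-atp8 (0.18, adjusted p = 0.0646), and of all genes 11.1% were called higher and 9.33% lower.

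**Figure D2:**
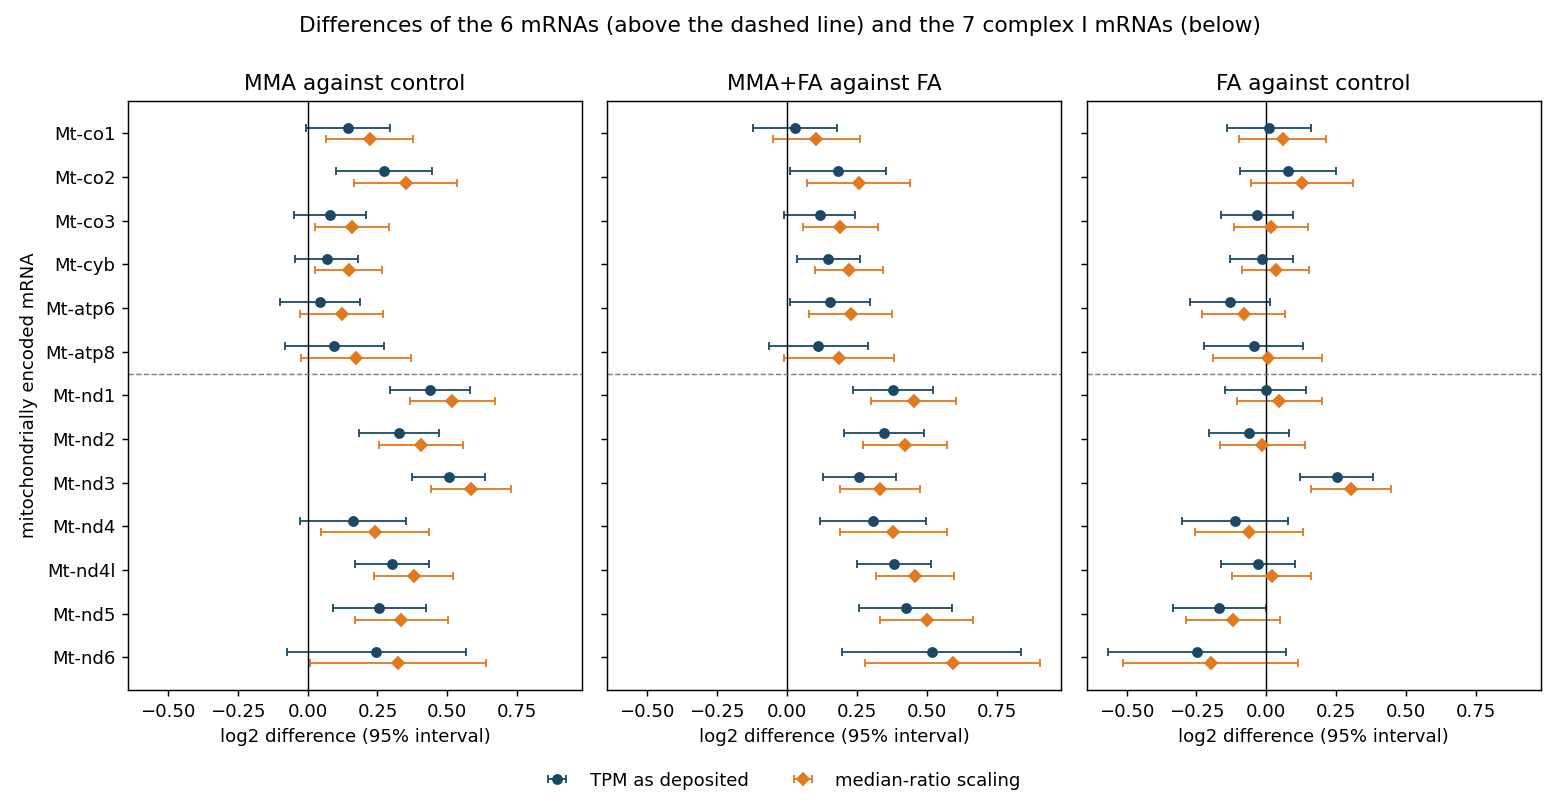
Log2 differences of the 13 mitochondrially encoded mRNAs in 3 comparisons, with 95% intervals from limma, for TPM as deposited (circles) and after median-ratio scaling (diamonds). Apart from Mt-co2 in MMA against control, the 6 mRNAs above the dashed line have lower estimates with MMA than all complex I mRNAs below it, and the intervals of the 6 include 0 in FA against control.

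In MMA+FA against control, Mt-co2 was again the only one of the 6 that was called. It was higher in MMA+FA by 0.26 (SE 0.0791, adjusted p = 0.0204). Mt-cyb was at 6197 ± 95.7 TPM against 5660 ± 214 in control (SD, n = 3), a log2 difference of 0.13 that missed the threshold (adjusted p = 0.0617). The other four had differences between 0.024 and 0.084. Hence 1 of 6 was called higher and 0 lower, against 6.67% and 32.6% of all genes, and the groups did not overlap for 3 of 6 (Mt-co2, Mt-co3 and Mt-cyb), as for 10.4% of all genes with MMA+FA above control.

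The call of Mt-co2 was lost without the second control library (adjusted p = 0.0698) and without the second MMA+FA library (adjusted p = 0.0892). It was also lost with no filter (adjusted p = 0.0992) and with quantile normalization, where the difference was 0. The median over all genes in this comparison was -0.12. After median-ratio scaling, 3 of 6 were called higher (Mt-co2 with 0.38, Mt-cyb with 0.26 and Mt-co3 with 0.21), and 15.5% of all genes were called higher and 13.9% lower. Fitting only the control and MMA+FA libraries called Mt-cyb as well (adjusted p = 0.0303), as did leaving out the second or the third FA library (adjusted p = 0.0120 and 0.0259).

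FA alone gave 0 calls in either direction among the 6, by limma on log2(TPM + 1). The differences from control ran from -0.13 for Mt-atp6 to 0.079 for Mt-co2, with adjusted p from 0.199 to 0.945 and 0 of 6 at an unadjusted p under 0.05, against 31.1% of all genes. Their 95% intervals lay between -0.27 and 0.25, and 3.67% of all genes were called higher and 8.70% lower. Under median-ratio scaling, which called 5.78% of all genes higher and 3.88% lower, the small differences of Mt-co3, Mt-cyb and Mt-atp8 changed sign, and again 0 of 6 were called. Without the second FA library Mt-atp6 was called lower, by -0.21 (adjusted p = 0.0218), in a fit that called 7.03% of all genes higher and 13.9% lower.

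Averaged over both MMA states, FA also left 0 of 6 called by limma (0 of 6 at an unadjusted p under 0.05, against 38.6% of all genes), where 6.50% of all genes were called higher and 18.4% lower. The differences were between -0.075 for Mt-atp6 and 0.033 for Mt-co2, and the 95% intervals lay between -0.18 and 0.15. Leaving out the second FA library made Mt-atp6 a call here too, by -0.11 (adjusted p = 0.0332), beside 9.14% of all genes called higher and 21.5% lower. Median-ratio scaling called 11.2% of all genes higher and 9.88% lower in this comparison.

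Adding FA to MMA gave 0 calls among the 6 (MMA+FA against MMA, 0 of 6 at an unadjusted p under 0.05 against 28.2% of all genes, limma), with differences from -0.10 for Mt-co1 to 0.063 for Mt-cyb and intervals between -0.26 and 0.18. Of all genes, 4.19% were called higher and 9.53% lower, and 6.39% and 6.19% after median-ratio scaling. These groups did not overlap for 2 of 6, with Mt-cyb higher and Mt-co1 lower in MMA+FA. Without overlap, 10.7% of all genes were higher and 22.0% lower. The interaction asks whether the response to MMA differed with FA. It was called for 0 of 6, again with 0 of 6 at an unadjusted p under 0.05 (17.6% of all genes), and the background was 0.938% of genes called higher and 1.47% lower. Interaction terms ran from -0.11 for Mt-co1 to 0.11 for Mt-atp6, and their 95% intervals, between -0.33 and 0.31, reach beyond the largest response to MMA.

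The 7 mitochondrially encoded mRNAs of complex I, Mt-nd1 to Mt-nd6 with Mt-nd4l, had larger estimates with MMA averaged over both FA states, from 0.23 to 0.41, than any of the 6. All 7 were called higher, where 4.13% of all genes were, with a median of 0.34 beside 0.10 for the 6 and -0.071 for all genes. For 5 of the 7 every library with MMA lay above every library without it, as for 0.432% of all genes. This held for 0 of the 6. Mt-co2 came close to the lowest of the 7, at 0.228 (SE 0.0559) beside 0.235 (SE 0.0616) for Mt-nd4, averaged over both FA states. In MMA against control the 0.27 of Mt-co2 was above Mt-nd4, Mt-nd5 and Mt-nd6 (0.16, 0.26 and 0.25). In MMA against control 5 of 7 were called higher, beside 3.85% of all genes. In MMA+FA against FA it was 7 of 7, beside 1.60%, and in MMA+FA against control 5 of 7, beside 6.67%. In FA against control 1 of 7 was called higher, beside 3.67%. With quantile normalization these counts were 6 with MMA averaged, 4, 4, 5 and 0. In the same order, that normalization called 8.27%, 7.27%, 2.07%, 13.4% and 5.57% of all genes higher.

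**Figure D3:**
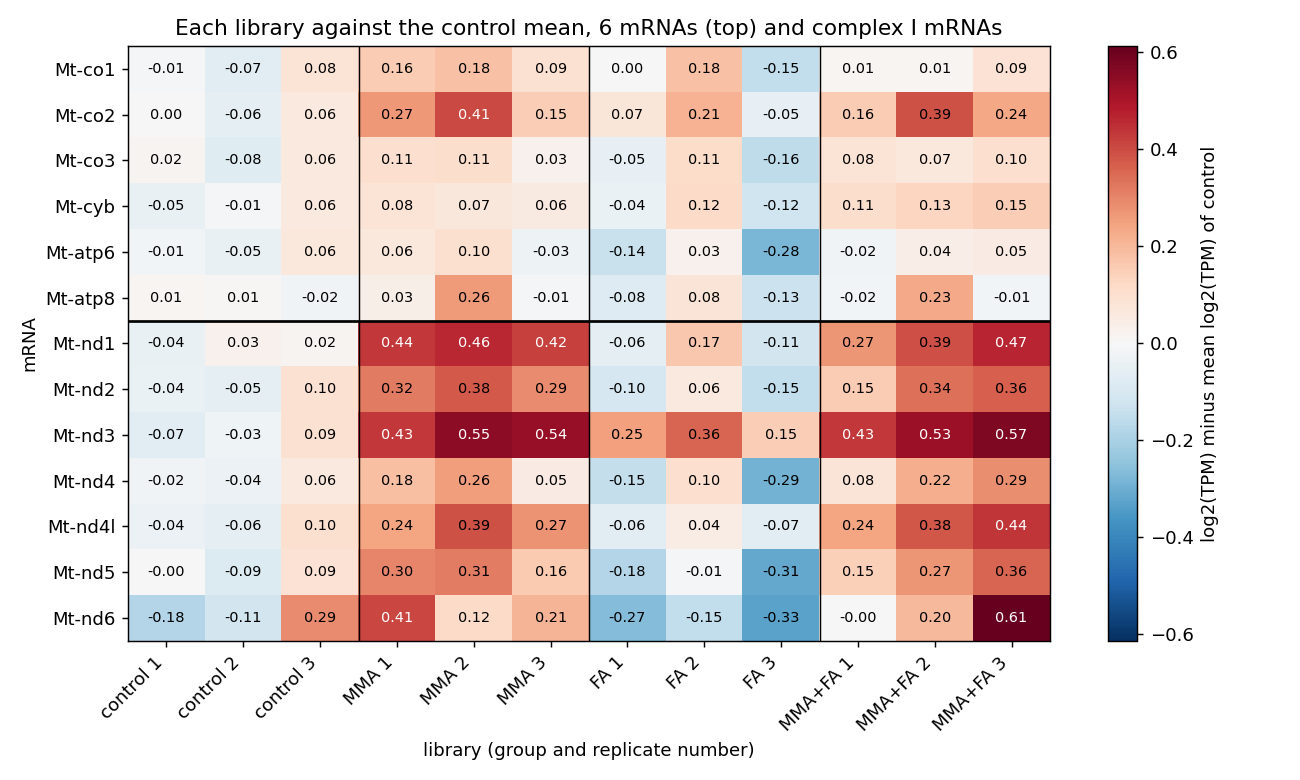
Log2(TPM) of the 13 mRNAs in each library minus the mean of the control libraries, with the 6 mRNAs above the heavy line and complex I mRNAs below. Red is higher and blue lower than control. The columns of MMA and MMA+FA are redder below the line than above it, Mt-co2 is at 0.41 and 0.39 in the second replicates of these groups, and the third FA library is the lowest of the 12 for all of the 6 but Mt-co2.

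The 6 mRNAs made up a smaller part of mitochondrially encoded mRNA with MMA. Of the TPM of the 13 mRNAs, they held 82.1, 81.6 and 81.0% in the control libraries and 80.9, 81.04 and 80.6% in the FA libraries. They held 79.0, 79.3 and 78.1% in the MMA libraries and 78.99, 79.02 and 77.2% in the MMA+FA libraries. The libraries with and without MMA did not overlap. Such a ratio is unaffected by any common factor applied to a library. It does not mean that the 6 fell. Their mean share of all TPM was 8.49% in MMA against 7.81% in control, and 8.33% in MMA+FA against 7.70% in FA. The complex I mRNAs held 2.28% against 1.77%, and 2.29% against 1.83%. Mt-atp8, whose level depends on how reads were divided, made up 27.1 to 31.4% of the 13, and the share among the 13 was not taken without it.

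For each of the 6, the log2 ratio to the mean of the 7 complex I mRNAs was taken in every library. This ratio was chosen after the values were seen and all 6 share its denominator, so it is given as a description with no p. The ratio of Mt-co1 was 2.86 ± 0.0522 in the 6 libraries without MMA and 2.60 ± 0.0833 in the 6 with it (SD), a difference of -0.26 with no overlap. The differences of Mt-co3, Mt-cyb and Mt-atp6 were -0.25, -0.24 and -0.25, each with no overlap. Any gene that rose less with MMA than the complex I mRNAs (median log2 difference 0.34) has a lower ratio by construction. The median difference over all genes was -0.071, below that of each of the 6, so a lower ratio does not set the 6 apart. How many of all genes lacked overlap in this ratio was not examined.

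Mt-atp8 also had a lower ratio with MMA, by -0.24, but its groups overlapped. Mt-co2 departed least, with 2.28 ± 0.103 against 2.40 ± 0.0809, a difference of -0.12 with overlap. Leaving out any single library kept each difference below 0, and for Mt-co2 it ranged from -0.15 to -0.083.

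Ratios within a library also showed how the 6 differ among themselves. Mt-co2 stood at 0.716, 0.713 and 0.698 times the TPM of Mt-co1 in control, 0.765, 0.829 and 0.737 in MMA, 0.745, 0.726 and 0.763 in FA, and 0.783, 0.920 and 0.786 in MMA+FA. All 9 treated libraries were above all 3 control libraries, by a narrow margin for FA (lowest 0.726, against a highest of 0.716 in control). This ratio was 1 of several taken, and how often other pairs of genes separate in this way was not examined. The level of Mt-co2 itself was not called in FA against control by limma (adjusted p = 0.529). The second MMA+FA library was the highest.

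Mt-atp8 stood at 4.18, 4.26 and 3.87 times the TPM of Mt-atp6 in control, 4.02, 4.59 and 4.16 in MMA, 4.26, 4.25 and 4.55 in FA, and 4.11, 4.69 and 3.92 in MMA+FA. The groups overlapped. The highest ratios were those of the second MMA+FA and second MMA libraries. The second MMA library also held the highest level of Mt-co1, Mt-co2, Mt-atp6 and Mt-atp8, the second FA library that of Mt-co3 and the third MMA+FA library that of Mt-cyb. Without the second MMA library the difference of Mt-atp8 between MMA and control was 0.012, against 0.096 with it.

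**Figure D4:**
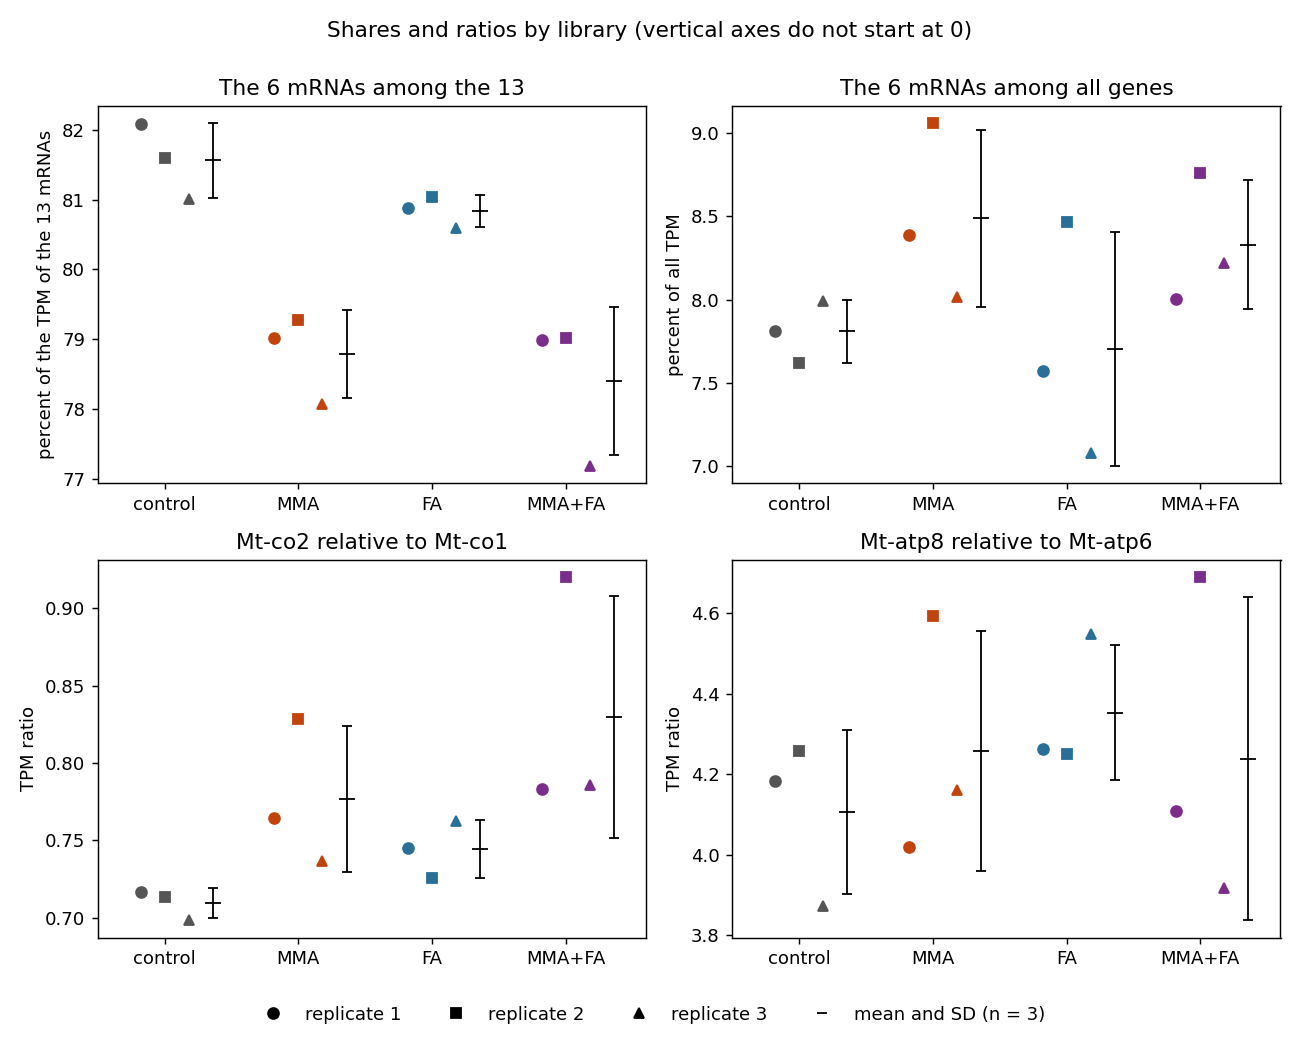
Share of the 6 mRNAs in the TPM of the 13 mitochondrially encoded mRNAs and of all genes, and the ratios of Mt-co2 to Mt-co1 and of Mt-atp8 to Mt-atp6, by library, with mean and SD of 3 beside each group. The share among the 13 is lower in all libraries with MMA than in all without, and the second replicates of MMA and MMA+FA top both ratios.

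The 2 mitochondrial rRNA rows of the table rose with MMA as well. Summed, they were at 1108 ± 25.4 TPM in control, 1380 ± 46.9 in MMA, 973 ± 95.7 in FA and 1270 ± 75.4 in MMA+FA (SD, n = 3). Averaged over both FA states, the differences with MMA were 0.34 and 0.36 on the log2 scale (adjusted p = 0.00118 and 0.000735). With FA averaged over both MMA states, 1 of these rows fell by 0.29 (adjusted p = 0.00155) and the other had a difference of -0.013 (adjusted p = 0.873). Libraries were made from polyA RNA per the labels, so these values describe only what that selection kept. All 22 tRNA rows were listed at 0.

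Among the nuclear partners of the 6 proteins, a few genes were called higher and none lower with MMA averaged over both FA states, where 4.13% of all genes were called higher and 26.0% lower. Of complex III and cytochrome c, 1 of 9 tested genes was called higher and 0 lower (median 0.021), namely Uqcrfs1, the iron-sulfur subunit (0.087, adjusted p = 0.0167). Cyc1, cytochrome c1, Uqcrc2, a core subunit, and Cycs, the electron carrier cytochrome c, had differences of -0.022, -0.021 and 0.021 (adjusted p = 0.632, 0.646 and 0.818).

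Of complex IV, 1 of 13 was called higher and 0 lower (median 0.058). This was Cox5a, a subunit facing the matrix (0.17, adjusted p = 0.0156), and Cox4i1, which takes part in the regulation of the complex, had a difference of 0.0040 (adjusted p = 0.939). Of complex V, 3 of 17 were called higher and 0 lower (median 0.019). They were Atp5f1a, the alpha subunit of the catalytic head (0.096, adjusted p = 0.0202), Atp5mc2, a gene of the proton-carrying ring (0.12, adjusted p = 0.0206), and Atp5mf, a membrane subunit (0.13, adjusted p = 0.0312). Atp5f1b, the catalytic beta subunit, had a difference of 0.0059 (adjusted p = 0.872). The membrane subunit genes Atp5me, with -2.52 (adjusted p = 0.136), and Atp5mk, with 1.72 (adjusted p = 0.464), had the widest estimates of this list, and Atp5mk was listed at 0 in the FA libraries.

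These counts moved with the scaling. With median-ratio scaling 3 of 9, 6 of 13 and 5 of 17 genes of complexes III, IV and V were called higher and 0 lower, beside 11.1% of all genes higher and 9.33% lower. With quantile normalization the counts were 1, 2 and 1 higher and 0 lower, beside 8.27% and 8.68% of all genes, and Atp5mc2 and Atp5mf lost their calls (adjusted p = 0.0512 and 0.0990). Uqcrfs1, Cox5a and Atp5f1a were called higher under each of these scalings and with TPM rescaled without mitochondrially encoded genes.

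In MMA+FA against control the nuclear subunits had calls in both directions, where 6.67% of all genes were called higher and 32.6% lower. For complex III 0 of 9 were called, and for complex IV 0 were higher and 2 of 13 lower, Cox6a2, the muscle form of a regulatory subunit, from 132 ± 2.61 to 77.0 ± 18.7 TPM (-0.80, adjusted p = 0.000824), and Cox7a2l, linked to supercomplexes (-0.16, adjusted p = 0.0347). For complex V 2 of 17 were higher, Atp5mf (0.31, adjusted p = 0.00151) and Atp5f1a (0.16, adjusted p = 0.00546), and 1 was lower, the inhibitor of the enzyme, Atp5if1 (-0.17, adjusted p = 0.00449). Cox6a2, Atp5mf and Atp5f1a were called under each other scaling. Atp5if1 was not called with median-ratio scaling (adjusted p = 0.443), and Cox7a2l was called under none of the other 3 scalings (adjusted p from 0.0552 to 0.661). Median-ratio scaling called 2 of 9, 5 of 13 and 4 of 17 genes of complexes III, IV and V higher and 0, 1 and 0 lower, beside 15.5% and 13.9% of all genes. Quantile normalization called 1, 2 and 3 higher and 1, 1 and 1 lower, beside 13.4% and 13.5%.

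Assembly factors of the 3 complexes showed 1 higher and 2 lower among 26 with MMA averaged over both FA states, and 0 higher and 5 lower in MMA+FA against control. Of all genes 4.13% were called higher and 26.0% lower in the first comparison and 6.67% and 32.6% in the second, so the shares called lower in this list were below those of all genes. Coa3, an early factor for Mt-co1 protein, was higher with MMA (0.18, adjusted p = 0.0366). Tmem177, which acts on the Mt-co2 protein, was lower in both comparisons (-0.26, adjusted p = 0.00709, and -0.36, adjusted p = 0.00454). Lyrm7, a factor for the iron-sulfur subunit of complex III, was lower as well (-0.27, adjusted p = 0.0329, and -0.43, adjusted p = 0.0155).

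Pet100, a complex IV factor, and Tmem242, an ATP synthase factor, were lower in MMA+FA (-0.24, adjusted p = 0.00873, and -0.23, adjusted p = 0.0133). Surf1, a complex IV factor, and Tmem70, an ATP synthase factor, were not called (adjusted p = 0.428 and 0.198 with MMA over both FA states). With median-ratio scaling the assembly counts were 4 higher and 1 lower with MMA and 3 higher and 1 lower in MMA+FA. That scaling called 11.1% of all genes higher and 9.33% lower with MMA, and 15.5% and 13.9% in MMA+FA. Tmem177 kept its calls there, and Lyrm7, Pet100 and Tmem242 lost theirs (adjusted p from 0.0578 to 0.229). With quantile normalization 5 were higher and 0 lower with MMA and 2 higher and 0 lower in MMA+FA, so Tmem177 lost its calls as well (adjusted p = 0.111 and 0.137). The shares of all genes were then 8.27% higher and 8.68% lower with MMA, and 13.4% and 13.5% in MMA+FA.

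Genes of mitochondrial transcription and replication and their nuclear regulators had 0 higher calls in these comparisons on TPM as deposited. With MMA over both FA states 3 of 17 were lower (median -0.052), beside 26.0% of all genes, namely Pprc1, a coactivator of the PGC-1 family (-0.31, adjusted p = 0.000909), Mterf1, a mitochondrial termination factor (-0.20, adjusted p = 0.0299), and Nrf1, a regulator of nuclear genes for mitochondria (-0.11, adjusted p = 0.0334). In MMA+FA 5 of 17 were lower, beside 32.6% of all genes. They were the same 3 with Tfam, the packaging and initiation factor of mitochondrial DNA (-0.20, adjusted p = 0.00653), among the others. These shares do not set the list apart from all genes. Polrmt, the mitochondrial RNA polymerase, had differences of -0.20 and -0.15 in these comparisons (adjusted p = 0.120 and 0.387).

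Here too the scaling mattered. Pprc1 was called lower under each other scaling, and Mterf1 was called lower in MMA+FA under each. With MMA over both FA states, Mterf1 and Nrf1 lost their calls under each (adjusted p from 0.0525 to 0.669). Median-ratio scaling left 1 higher and 1 lower of 17 with MMA, and 0 higher and 2 lower in MMA+FA. Its shares of all genes were 11.1% higher and 9.33% lower with MMA, and 15.5% and 13.9% in MMA+FA. Quantile normalization left 1 higher and 1 lower with MMA, and 1 higher and 2 lower in MMA+FA. Its shares were 8.27% and 8.68% of all genes with MMA, and 13.4% and 13.5% in MMA+FA. Tfam was not called in MMA+FA under either (adjusted p = 0.248 and 0.147), nor was Nrf1 (adjusted p = 0.0696 with median-ratio scaling).

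Factors for processing, stability and translation of mitochondrial mRNAs gave 0 higher and 1 lower of 24 with MMA over both FA states, and 0 higher and 9 lower in MMA+FA against control, where 26.0% and 32.6% of all genes were called lower. Fastkd1, of the FASTK family that acts on mitochondrial RNAs, was lower in both (-0.22, adjusted p = 0.00834, and -0.40, adjusted p = 0.00131). Lactb2, a mitochondrial ribonuclease, and Trmt10c, a part of the enzyme that cuts before tRNAs, were lower in MMA+FA (-0.34, adjusted p = 0.00316, and -0.30, adjusted p = 0.00439). Taco1, a translational activator of Mt-co1, was lower in MMA+FA (-0.36, adjusted p = 0.0255) at a level of 2.5 TPM in control.

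Lrpprc and Slirp, partners that stabilise mitochondrial mRNAs, were not called in either comparison (adjusted p = 0.0621 and 0.132 with MMA, and 0.317 and 0.0513 in MMA+FA). With median-ratio scaling, 2 were higher and 0 lower with MMA and 4 higher and 3 lower in MMA+FA. Beside these stood 11.1% and 9.33% of all genes with MMA, and 15.5% and 13.9% in MMA+FA. The calls of Trmt10c and Taco1 in MMA+FA and of Fastkd1 with MMA were lost under this scaling (adjusted p = 0.0564, 0.0887 and 0.0548). With quantile normalization 0 were called with MMA and 2 higher and 1 lower in MMA+FA. It called 8.27% of all genes higher and 8.68% lower with MMA, and 13.4% and 13.5% in MMA+FA. There Fastkd1 kept its call in MMA+FA (adjusted p = 0.0356), and Lactb2, Trmt10c and Taco1 lost theirs (adjusted p from 0.0623 to 0.150).

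The genes whose levels ran most like each of the 6 over the 12 libraries were found by the correlation of their log2 levels. By Pearson's r of log2(TPM + 1) among 8148 genes whose mean was 10 TPM or more, given as a description of libraries that share the group differences, Mt-co1 was nearest to Matr3 (r = 0.90), Mt-co2 to C1h19orf33 (r = 0.92), Mt-co3 to Tmsb4x (r = 0.91), Mt-cyb to Skp1 (r = 0.95), Mt-atp6 to Cox7c (r = 0.96) and Mt-atp8 to Ppp1cb (r = 0.83). The next nearest were Rps25 and Fam118a for Mt-co1, Marchf7 and H3f3a-ps3 for Mt-co2, Mt-atp6 and Cox5a for Mt-co3, Ube2l3 and Tmsb4x for Mt-cyb, Rpl23a and Rps21 for Mt-atp6, and C1h19orf33 and Tomm20 for Mt-atp8. Among the 6 themselves, r over the 12 libraries was from 0.71 to 0.91 for the pairs without Mt-co2 and Mt-atp8, and from 0.87 to 0.97 after the group means were removed. Pairs of Mt-atp8 with members other than Mt-co2 had lower r, from 0.53 to 0.69, and from 0.40 to 0.60 without the group means. Mt-atp8 with Mt-co2 had r = 0.81, and 0.89 without the group means. Pairs of Mt-co2 with the remaining members had r from 0.68 to 0.77, and from 0.64 to 0.84 without the group means. The summed TPM of the 6 ran most like Tomm20, an import receptor of the outer mitochondrial membrane (r = 0.93), followed by Marchf7, Eef1a1l1, Pdha1 and Btf3 (r from 0.89 to 0.90).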

How the data were processed

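Per the labels, RNA from H9c2 cells was extracted with TRIzol and made into stranded polyA libraries, 3 in each of 4 groups. Per the submitters' processing notes, fastp, HISAT2 and the build mRatBN7.2 were used. The authors deposited 1 TPM value per gene and library, in a table whose title names RSEM. Tool versions, annotation and counting rules are not given in these sources, so depth is unknown and sharing of reads with nuclear copies of mitochondrial DNA was not examined.

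The 12263 genes whose mean reached 1 TPM were fitted as log2(TPM + 1) in limma 3.58.1 (R 4.3.3), with group means, a trend of variance with level, and 8 comparisons. P-values were adjusted by Benjamini and Hochberg over all genes, and calls are at 0.05. The members, lists, named genes (the called genes with the 3 smallest adjusted p per list and fixed partners) and alternatives were chosen with earlier results of these data known. The ratios to complex I mRNAs, and the lists under other scalings, were added after seeing the data. On data simulated from 12263 genes for MMA against control, the fit recovered 48% of genes changed by 0.3 and 1.2% of those changed by 0.1 on the log2 scale. Far fewer genes were changed there than the 2501 called in the data, and they were drawn from all levels. These percentages are therefore not the power for a change in one of the 6 mRNAs. Sequences and coordinates of the 6 genes were not used here.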

Additional observations from a re-analysis of the deposited data

How the results depend on the processing

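Depth is unknown, and small differences near 0 have no stable sign. The numbers called among the 6 mRNAs in MMA against control, MMA+FA against control and MMA averaged over both FA states (1, 1 and 2) fell to 0, 0 and 0 with quantile normalization and to 0, 0 and 0 with no filter on low values. In the same order, 7.27%, 13.4% and 8.27% of all genes were called higher with quantile normalization. With no filter it was 1.73%, 3.71% and 1.92%. Quantile normalization sets equal ranks to equal values, and these mRNAs keep nearly the same top ranks in every library. Median-ratio scaling gave 3 in MMA+FA against control, 1 in MMA+FA against FA and 5 with MMA averaged over both FA states. All of these were higher calls, beside 15.5%, 3.43% and 11.1% of all genes called higher. Fitting only the groups compared gave 2 in MMA+FA against control, where 7.16% of all genes were called higher. No mean-variance trend gave 1 with MMA averaged, beside 3.58% of all genes called higher. Same-numbered libraries deviated together with r from -0.124 to 0.107, and differently numbered ones with r from -0.203 to 0.141. Such r over all tested genes cannot tell whether the numbers pair libraries through a weak effect or one on few genes. A replicate block gave 1 with MMA averaged, losing Mt-cyb (adjusted p = 0.0558), beside 3.83% of all genes called higher. It changed no other count. TPM rescaled without mitochondrially encoded genes, a pseudocount of 0.1 and a minimum mean of 10 TPM changed no count among the 6. Apart from the scalings named, the cause was not tested.

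Leaving out 1 library at a time gave counts from 0 to 1 in MMA against control, 0 to 1 in FA against control, 0 to 2 in MMA+FA against control, 0 to 3 in MMA+FA against FA, 1 to 5 with MMA averaged and 0 to 1 with FA averaged over both MMA states. The same fits called 1.84% to 4.72% of all genes higher in MMA against control and 4.59% to 7.43% in MMA+FA against control. It was 0.359% to 2.67% in MMA+FA against FA and 2.81% to 4.50% with MMA averaged. For FA the call was of Mt-atp6, lower. There 1.17% to 13.9% of all genes were called lower against control, and 12.2% to 21.5% with FA averaged.

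Differences that were not called changed sign as follows. With median-ratio scaling, 8 of the 48 differences did so. For FA against control they were 0.017 for Mt-co3, 0.033 for Mt-cyb and 0.0042 for Mt-atp8. For MMA+FA against MMA they were 0.033 for Mt-co2, 0.025 for Mt-atp6 and 0.016 for Mt-atp8. For FA averaged over both MMA states they were 0.033 for Mt-co3 and 0.010 for Mt-atp8. With quantile normalization 12 did so. For MMA against control the value was -0.20 for Mt-atp6. For FA against control they were -0.034 for Mt-co1 and -0.12 for Mt-co2. For MMA+FA against control they were -0.034 for Mt-co1, -0.061 for Mt-cyb and -0.20 for Mt-atp6. For MMA+FA against MMA the value was -0.061 for Mt-cyb. For the interaction they were 0.12 for Mt-co2 and -0.075 for Mt-atp8. For MMA averaged over both FA states the value was -0.089 for Mt-atp6. For FA averaged over both MMA states they were -0.061 for Mt-co2 and -0.095 for Mt-cyb.

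Leaving out 1 library changed the sign of 16 differences, none of them called. The range in FA against control was -0.076 to 0.090 for Mt-co1, -0.10 to 0.030 for Mt-co3 and -0.082 to 0.037 for Mt-cyb. The range in MMA+FA against control was -7.31e-05 to 0.055 for Mt-atp6 and -0.016 to 0.11 for Mt-atp8. The range in MMA+FA against FA was -0.051 to 0.12 for Mt-co1. The range in MMA+FA against MMA was -0.076 to 0.054 for Mt-co2, -0.023 to 0.018 for Mt-co3, -0.058 to 0.0072 for Mt-atp6 and -0.11 to 0.054 for Mt-atp8. The range in the interaction was -0.026 to 0.11 for Mt-co3 and -0.067 to 0.099 for Mt-atp8. The range in FA averaged over both MMA states was -1.89e-05 to 0.066 for Mt-co2, -0.050 to 0.017 for Mt-co3, -0.0094 to 0.050 for Mt-cyb and -0.078 to 0.0048 for Mt-atp8.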
